A study of Mus musculus with 5 samples.

Results

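The genes described here encode nuclear subunits of respiratory complexes II, III, IV and V and the electron carrier cytochrome c, measured in cultured heart muscle cells and in the microvesicles these cells shed. They were chosen by gene symbol alone, as every array probe named for a succinate dehydrogenase subunit (Sdha to Sdhd), a Uqcr gene, Cyc1, Cycs, a Cox5 to Cox8 gene or an Atp5 gene. This gave 55 probes of 45 genes among 25697 probes on the array. Complex II had 6 probes of 3 genes, complex III 10 probes of 9 genes, complex IV 19 probes of 16 genes, complex V 18 probes of 16 genes and cytochrome c 2 probes of 1 gene. Sdha was not analysed here, and Cox4i1 and Cox4i2 fall outside the symbol pattern and are given with the other genes of the pathway. The source cells were HL-1, an untreated mouse atrial cardiomyocyte line grown in Claycomb medium, and every extract came from this line. HL-1 descends from an atrial tumour of a mouse that carried the SV40 large T antigen, so it beats and divides at once and is a single immortal line rather than adult heart. Total RNA of the cells (2 arrays), total RNA of their microvesicles (2 arrays) and DNA of the microvesicles (1 array) were labelled as cRNA and read on Illumina BeadChips for mouse, the DNA after a poly-T tail had been added so that it could be copied. The cell arrays shared chip 1 with microvesicle RNA array 1, while microvesicle RNA array 2 lay on chip 2 beside the DNA array.

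The respiratory chain sits in the inner mitochondrial membrane. Complex II passes electrons from succinate to ubiquinone and is also an enzyme of the citric acid cycle, complex III passes them from ubiquinol to cytochrome c, and complex IV, cytochrome oxidase, passes them to oxygen. Complex V, the ATP synthase, uses the proton gradient that the chain builds to make ATP. Apart from complex II, whose subunits are all nuclear, each of these complexes joins nuclear-encoded subunits to a few made in the mitochondrion. Heart muscle is rich in them, and several complex IV subunits exist as a heart and skeletal muscle form and a form found in most tissues.

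Each signal is a mean over beads, and 24 to 62 beads lay behind the member probes (median over all probes 41 on every array). The median standard error over beads was 4.07% to 5.31% of a member's signal, depending on the array. A probe counts as detected at a detection p under 0.01, the share of negative control probes that reach its signal. The median raw signal of all probes was 90.9 on microvesicle RNA array 2 and 62.6 to 70.2 on the other arrays, and microvesicle RNA array 2 also stood apart in the members, as given throughout. Of the 10 cardiomyocyte markers listed, 7 were detected on both cell arrays and Ryr2, Tnni3 and Gja5 on neither. The summed raw signal of the cardiomyocyte list was 9326 and 6800 on the cell arrays, 2386 and 9072 with microvesicle RNA and 734 with microvesicle DNA. Background was not subtracted from these sums, and no marker of this list was detected on the DNA array. Myl4 alone gave 4906 and 3097 on the cell arrays and 1404 and 5871 with microvesicle RNA, so a few bright genes weigh most. Of 23 markers of fibroblasts, endothelium, macrophages, red cells, fat and skeletal muscle on the array, Tek was detected on both cell arrays and the other 22 on no array. Normalized values are log2 intensities after background correction and quantile normalization of the 4 RNA arrays, and the level of 1 probe cannot be set against that of another.

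Members were found on the arrays far more often than probes in general, and on the cell arrays and microvesicle RNA array 1 the complex II probes less often than those of complexes III, IV and V. Of the 55 member probes, 40 and 39 were detected on cell arrays 1 and 2, where 16.3% and 14.1% of all probes were. Microvesicle RNA array 1 detected 27 (all probes 7.88%) and microvesicle RNA array 2 detected 37 (all probes 21.8%). Both cell arrays detected 38 (all probes 13.5%), both microvesicle RNA arrays 26 (all probes 6.21%) and all 4 RNA arrays 25 (all probes 5.96%). No member was detected on both microvesicle RNA arrays and neither cell array (all probes 0.101%), and 10 were detected on no RNA array (all probes 70.5%). Complex III had 7 of 10 probes detected on each of the 4 RNA arrays. Complex IV went from 15 of 19 probes on each cell array to 10 and 12 on microvesicle RNA arrays 1 and 2, and complex V from 15 and 14 of 18 to 10 and 14. For complex II, 2 of 6 probes were detected on each cell array, 0 on microvesicle RNA array 1 and 4 on microvesicle RNA array 2. The 44 probes of complex I subunits, the nearest related set, were detected at 59.1% and 50.0% on the cell arrays, 36.4% on microvesicle RNA array 1 and 77.3% on microvesicle RNA array 2. Microvesicle RNA array 2 alone among the RNA arrays detected 4 member probes and 9 complex I probes (all probes 12.3%). These shares are descriptions of single arrays, and differences between the sets were not tested.

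**Figure D1:**
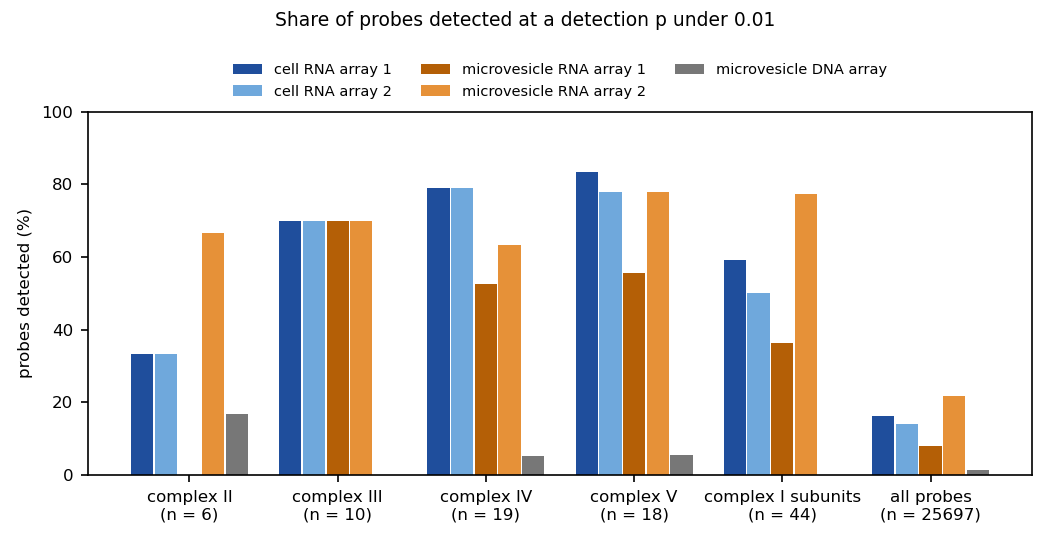
Share of probes detected (vertical axis, percent) in complexes II to V, in complex I and among all probes, with 1 bar for each of the 5 arrays and the number of probes under each set. Complex III sits at 70.0% on all 4 RNA arrays, and complex II has no detected probe on microvesicle RNA array 1.

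The main question of the series was how the RNA of microvesicles compares with that of the cells they leave. In this comparison the normalized values of complexes III, IV and V included genes above the cells and genes below them, and which side a gene lay on depended for some on the scaling or on the microvesicle array. In bulk extracts, fewer cells or vesicles with a transcript and less of it in each cannot be told apart. No member passed the test. In limma, 0 of the 39 member probes tested were higher and 0 lower at an adjusted p of 0.05, where 0% of 3878 probes were called in either direction. A probe was tested only if 2 or more of the 4 RNA arrays detected it, which left out 16 member probes and 11 genes, and the members' adjusted p-values ran from 0.121 to 0.924. At an unadjusted p under 0.05, Uqcrh and Cox7a2l were higher and Cox7b was lower, against 5.52% of tested probes higher and 23.2% lower.

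Each gene is represented from here on by its brightest probe over the 4 RNA arrays. Of 34 tested member genes, the microvesicle values were both under the cell values in 13 (all tested genes 50.3%, all tested probes 51.6%) and both over them in 8 (all tested genes 15%), and the groups overlapped in 13. Complex III had 4 below and 2 above of 6, complex IV 5 below and 3 above of 13, complex V 3 below and 3 above of 12, and complex II 1 below and 0 above of 2. The median log2 difference of tested genes, microvesicle minus cell, was -1.25 in complex III, -0.92 in complex IV, -0.26 in complex V and 0.19 in complex II, against -0.84 over all 3102 tested genes. By array, these medians were -0.36 and -2.15 in complex III, -0.17 and -1.42 in complex IV, 0.05 and -0.34 in complex V and -0.79 and 1.17 in complex II on microvesicle RNA arrays 1 and 2. Differences between the complexes were not tested. A gene could enter the test through the cell arrays alone. Over all 45 member genes without that filter the median was -0.14, with -0.44 in complex III, -0.13 in complex IV, -0.17 in complex V and -0.20 in complex II, against 0.02 over all 16593 genes. No RNA array detected 70.5% of all probes, against 18.2% of member probes, so all genes are not a matched background here. Among the 21 member genes detected on all 4 RNA arrays, 9 lay below the cells and 7 above (42.9% and 33.3%). Over all 1300 genes so detected, the shares were 35.3% and 25.8%. The median difference was -0.57 for these members and -0.58 for all genes so detected.

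The microvesicle arrays disagreed with each other far more than the cell arrays did. The cell arrays shared a chip and the microvesicle RNA arrays did not, so chip and sample cannot be told apart in this spread. The median absolute log2 difference of tested member genes was 0.19 for the pair of cell arrays and 2.23 for the pair of microvesicle arrays, against 0.16 and 1.36 over all tested genes. For the microvesicle pair it was similar in tested complex I subunits (2.16) and mitochondrial ribosomal proteins (2.41). Among genes detected on all 4 RNA arrays it was 2.28 for members and 1.93 for all genes. Of all 113 tested genes with a cell mean log2 over 11, 68.1% lay below the cell mean on array 1 and 91.2% on array 2. Picking genes by a high cell mean favours values below that mean in advance, for members and all genes alike. Of the 9 members this bright, 6 and 9 did. The median differences of these members were -0.42 and -2.56, against -0.44 and -3.40 over the 113 genes.

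**Figure D2:**
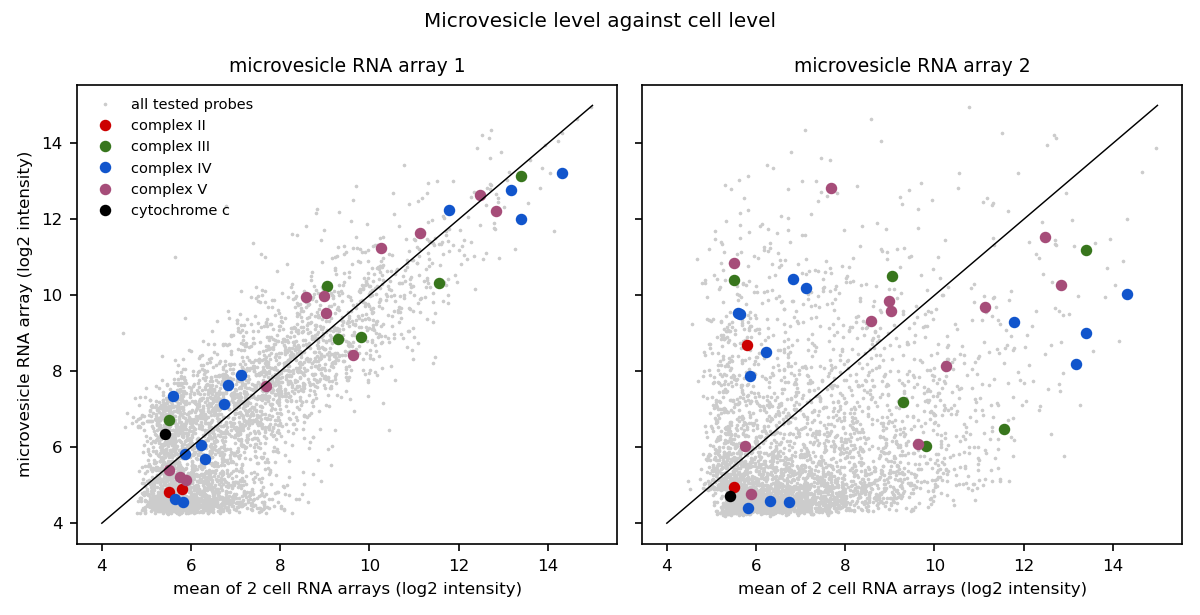
Normalized log2 intensity on microvesicle RNA array 1 (left) and array 2 (right) against the mean of the 2 cell RNA arrays, for all tested probes (grey) and the tested member genes (coloured by complex), with the line of equal values. Members lie near the line on array 1 and scatter more widely on array 2, with a median absolute difference of 2.23 between the arrays.

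Complex II gave few signals above background. Sdhb, the iron-sulfur subunit, gave raw signals of 87.1 and 84.8 on cell arrays 1 and 2 and 68.7 and 113 on microvesicle RNA arrays 1 and 2. It was detected on both cell arrays and on microvesicle RNA array 2, and its normalized difference was -0.61 ± 0.33 (SE, n = 2 per group; limma adjusted p = 0.302). The other Sdhb probes were detected on microvesicle RNA array 2 alone, at 162 and 132. Sdhc, a membrane anchor that helps to bind heme and ubiquinone, gave 97.2 and 96.7 in the cells and 69.3 and 594 in microvesicles, so that array 1 lay below and array 2 far above the cells. Its difference of 1.0 ± 1.47 (limma adjusted p = 0.664) turned to -0.91 without microvesicle RNA array 2. A second Sdhc probe and Sdhd, the other membrane anchor, were detected on no array.

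In complex III, Cyc1, the core proteins and the small subunit Uqcr10 had normalized microvesicle values under every cell value. Those of the small supernumerary subunits Uqcrh and Uqcr11 lay above every cell value. Cyc1, the cytochrome c1 that hands electrons on to cytochrome c, gave raw signals of 4222 and 3115 in the cells and 383 and 208 in microvesicles. Both microvesicle values lay under the cell values, and the normalized difference was -3.14 ± 1.47 (limma adjusted p = 0.256), with -1.22 on array 1 and -5.06 on array 2. Uqcrc1 and Uqcrc2 are the core proteins of the complex. Uqcrc1 gave 1451 and 961 in the cells against 172 and 175 in microvesicles, a normalized difference of -2.35 ± 1.12 (limma adjusted p = 0.26). Uqcrc2 gave 1102 and 615 against 167 and 279, a difference of -1.29 ± 0.71 (limma adjusted p = 0.306). For both core proteins the groups did not overlap. Uqcr10, a small membrane subunit, gave 14401 and 11974 in the cells and 4790 and 3115 in microvesicles. Its difference of -1.22 ± 0.79 (limma adjusted p = 0.362) came almost wholly from array 2, at -2.19 against -0.25 on array 1, and its second probe gave -0.62 ± 0.69.

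Uqcrh, the acidic hinge protein that sits by cytochrome c1, was the tested complex III gene whose microvesicle arrays lay closest together. Its raw signals were 933 and 526 in the cells and 351 and 1842 in microvesicles, and its normalized log2 values were 9.26 and 8.84 in the cells and 10.24 and 10.52 in microvesicles. The difference of 1.33 ± 0.37 (limma unadjusted p = 0.0283, adjusted p = 0.134) rests on the scaling, since it was 0.09 with median scaling and the raw signal on array 1 lay below the cells. Uqcr11, another small subunit, gave 97.6 and 78.9 in the cells and 83.0 and 1679 in microvesicles. It was detected on cell array 1 and both microvesicle RNA arrays, and its difference of 3.06 ± 1.41 (limma adjusted p = 0.253) was 1.22 on array 1 and 4.89 on array 2. Uqcrb was detected on cell array 2 alone, and Uqcrq and Uqcrfs1, the Rieske iron-sulfur protein, on no array. The mobile carrier cytochrome c, Cycs, was near background throughout, at 82.2 and 84.3 in the cells and 79.2 and 102 in microvesicles. It was detected on the cell arrays only, and no bound on a fold could be set. The fitted difference of 0.11 ± 0.70 (limma adjusted p = 0.924) rests on microvesicle values that were not detected. It turned to -0.31 with median scaling and -0.70 without microvesicle RNA array 1. The second Cycs probe was detected on no array.

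**Figure D3:**
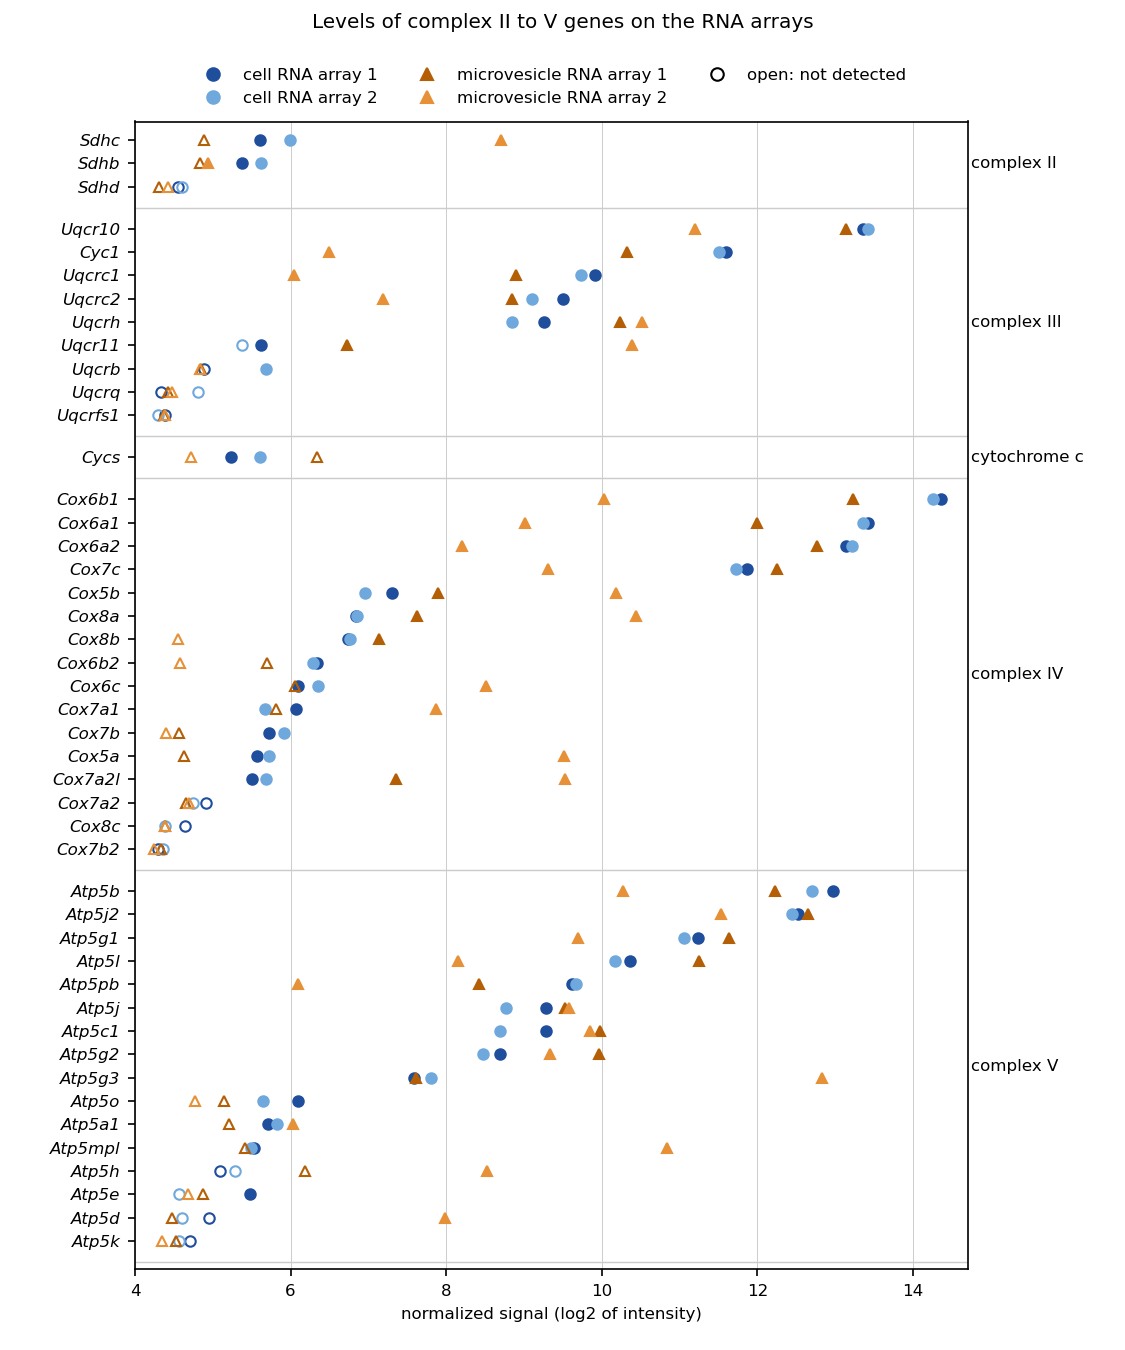
Normalized log2 intensity (horizontal axis) of the 45 member genes by their brightest probe, on the 2 cell RNA arrays (circles) and the 2 microvesicle RNA arrays (triangles), grouped by complex, with open symbols for values not detected. The cell arrays lie close together while the microvesicle arrays lie apart, as in Atp5g3 at 7.61 and 12.83.

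Several complex IV subunits with strong signal in the cells gave lower values on both microvesicle arrays without passing the test. Most tested genes with a cell mean log2 over 11 also lay below the cells on array 1 (68.1%) and on array 2 (91.2%), a selection that itself favours lower values. Cox6b1, a subunit on the face that docks cytochrome c, gave 26460 and 21042 in the cells and 5033 and 1332 in microvesicles, with a normalized difference of -2.69 ± 1.24 (limma adjusted p = 0.253). Cox6a1, the form of subunit VIa found in most tissues, gave 15362 and 11332 against 1257 and 708, a difference of -2.89 ± 1.16 (limma adjusted p = 0.216). In both genes every microvesicle value lay below every cell value, and their second probes gave -2.08 ± 1.42 and -2.50 ± 1.13. Cox6a2, the heart and skeletal muscle form of the same subunit, gave 12444 and 10900 in the cells and 3001 and 463 in microvesicles. Its difference of -2.70 ± 1.74 (limma adjusted p = 0.358) was -0.42 on array 1 and -4.98 on array 2, so it rests mainly on array 2. Cox7c, a small membrane subunit, showed the same array 2 deficit (-2.48) but lay above the cells on array 1 (0.46), from raw signals of 5201 and 3605 in the cells and 1682 and 845 in microvesicles.

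Other complex IV subunits were dim in the cells and bright on microvesicle RNA array 2. Cox8a, the form of subunit VIII in most tissues, gave 195 and 149 in the cells and 102 and 1742 in microvesicles, with a normalized difference of 2.19 ± 1.10 (limma adjusted p = 0.275). Cox5b, which binds zinc on the matrix side, gave 260 and 158 against 112 and 1495, a difference of 1.92 ± 0.92 (limma adjusted p = 0.264). Cox7a2l, which helps to join complexes III and IV into a supercomplex, gave 91.9 and 86.7 against 94.9 and 961, a difference of 2.85 ± 0.88 (limma unadjusted p = 0.0368, adjusted p = 0.148). All 3 were detected on all 4 RNA arrays with normalized microvesicle values above both cell values. Yet on array 1 the raw signals of Cox8a and Cox5b lay below the cells, and that of Cox7a2l lay just above them. With median scaling their differences were 1.19, 0.87 and 2.15. Cox5a (66.0 and 955 in microvesicles), Cox6c (76.7 and 542) and Cox7a1 (75.1 and 393) were found in both cell extracts and on microvesicle RNA array 2 but not array 1, and their cell signals lay between 86.3 and 126.

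Cox7b, a small membrane subunit, had the smallest adjusted p of all members. It gave 102 and 94.0 in the cells and 64.9 and 85.7 in microvesicles, where it was not detected (limma adjusted p = 0.121). Its normalized log2 values were 5.72 and 5.92 in the cells and 4.56 and 4.40 in microvesicles. The lowest detected value on microvesicle RNA array 1 was 6.51, so a Cox7b signal at the cell level would go undetected there. The bound of 1.09-fold lower, averaged over the microvesicle arrays, therefore rests on array 2. Cox6b2, a testis form, was likewise detected in the cells only, at 144 and 112 against 74.4 and 96.0 (limma adjusted p = 0.246). Its bound of 1.54-fold lower also rests on array 2, since its cell mean of 6.31 lies under 6.51. Its second probe was detected on no array.

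The tissue forms of complex IV subunits can be set side by side by where each was detected. For subunit VIa, the muscle form Cox6a2 and the general form Cox6a1 were both detected on all 4 RNA arrays. For subunit VIII, the general form Cox8a was detected on all 4, while the muscle form Cox8b, at 185 and 142 in the cells, was detected at 89.8 on microvesicle RNA array 1 and not at 94.2 on array 2. The difference of Cox8b was -0.92 ± 1.02 (limma adjusted p = 0.566) and 0.37 without array 2. For subunit VIIa, the muscle form Cox7a1 was detected on both cell arrays at 123 and 86.3, and the probe of the general form Cox7a2 on no array, at 73.8 and 68.4. The difference of Cox7a1 was 0.97 ± 0.85 (limma adjusted p = 0.476) and -0.06 without array 2. The testis forms Cox7b2 and Cox8c were detected on no array.

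**Figure D4:**
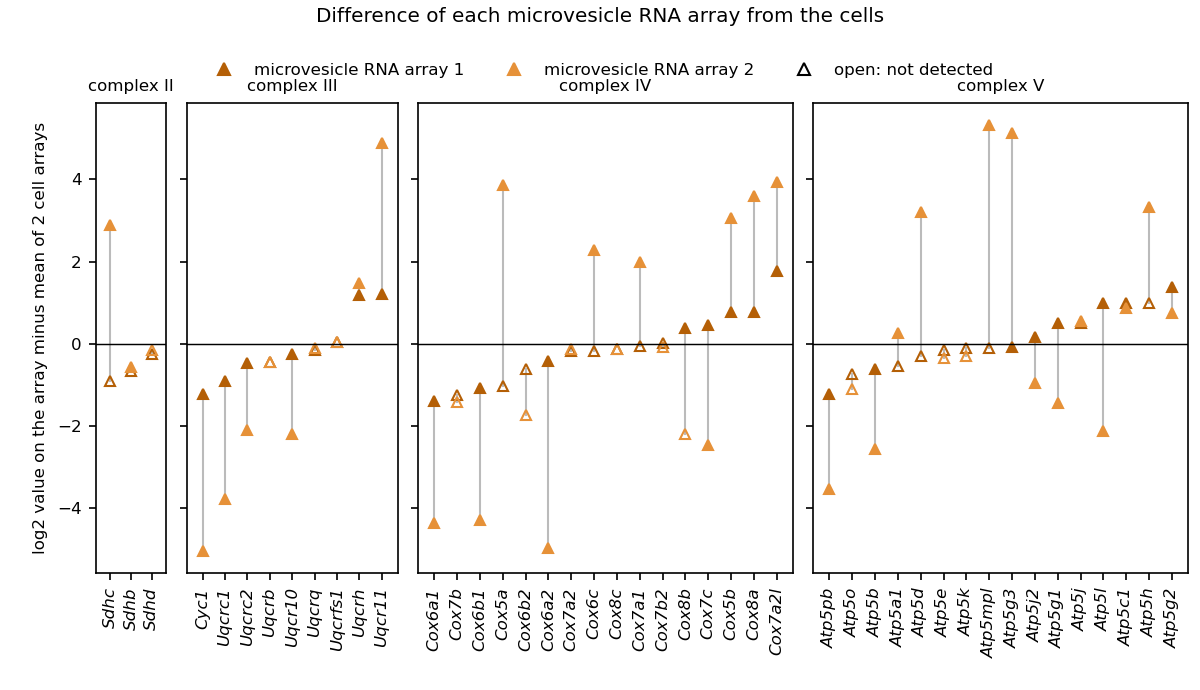
Normalized log2 value on microvesicle RNA array 1 and array 2 minus the mean of the 2 cell arrays (vertical axis) for each gene of complexes II to V, joined by a line, with open symbols for values not detected. Of the large distances, those of Cyc1 (-1.22 and -5.06) point down and those of Uqcr11 (1.22 and 4.89) up on both arrays, while Cox5a (-1.02 and 3.86) changes side.

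Complex V genes lay on either side of the cells after normalization, and the groups overlapped in 6 of 12 tested genes and in 1077 of all 3102. Atp5c1, Atp5g2 and Atp5j, the 3 with both microvesicle values above the cells, turned negative with median scaling. In its catalytic head, Atp5b, the beta subunit that makes ATP, gave raw signals of 10145 and 7285 in the cells and 1620 and 1562 in microvesicles. The groups did not overlap, and the normalized difference was -1.59 ± 0.80 (limma adjusted p = 0.276). Atp5c1, the gamma subunit that turns inside the head, gave 950 and 472 in the cells and 302 and 1168 in microvesicles. Its normalized values lay above the cells on both arrays (1.0 and 0.86; difference 0.93 ± 0.39, limma adjusted p = 0.226), but turned to -0.31 with median scaling and -0.23 with no normalization. Atp5a1, the alpha subunit, had a dim probe at 101 and 90.4 in the cells and 71.6 and 175 in microvesicles, with a difference of -0.14 ± 0.45 (limma adjusted p = 0.851). Atp5d, the delta subunit, was detected on microvesicle RNA array 2 alone, at 418 against 63.0 to 74.7 on the other RNA arrays, and Atp5e, the epsilon subunit, on cell array 1 alone.

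Of the stalk that holds the head still, Atp5pb, subunit b, gave 1195 and 913 in the cells and 138 and 178 in microvesicles, a normalized difference of -2.38 ± 0.93 (limma adjusted p = 0.207) with both microvesicle values below the cells. Atp5o, the subunit that confers oligomycin sensitivity, gave 126 and 85.7 against 71.1 and 105 and was not detected in microvesicles (limma adjusted p = 0.226). Its bound of 1.13-fold lower rests on array 2, since its cell mean of 5.88 lies under the lowest value detected on array 1, 6.51. Atp5j, coupling factor F6, went both ways by probe. Its brightest probe gave 951 and 501 in the cells and 241 and 987 in microvesicles (0.53 ± 0.37, limma adjusted p = 0.395, -0.69 with median scaling), and its other probes gave -1.30 ± 1.24 and -0.82 ± 0.47. The probe at -0.82 was not detected in microvesicles. Atp5h, subunit d, was detected on microvesicle RNA array 2 alone, at 544 against 76.9 to 77.9 on the other RNA arrays.

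Subunit c, which forms the rotating ring in the membrane, is made by 3 genes that encode the same mature protein with different import sequences. Atp5g1 gave 3318 and 2223 in the cells and 978 and 1062 in microvesicles, a normalized difference of -0.47 ± 0.80 (limma adjusted p = 0.708). Atp5g2 gave 647 and 401 against 298 and 852, a difference of 1.07 ± 0.41 (limma adjusted p = 0.201) that turned to -0.14 with median scaling. Atp5g3 gave 312 and 267 in the cells, 101 on microvesicle RNA array 1 and 8468 on microvesicle RNA array 2. Its difference of 2.53 ± 1.98 (limma adjusted p = 0.434) was -0.08 on array 1 and 5.13 on array 2, so the groups overlapped for Atp5g1 and Atp5g3 and not for Atp5g2. Differences between the 3 genes were not tested.

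Among the small membrane subunits, Atp5j2, subunit f, gave 8095 and 5924 in the cells and 2486 and 3855 in microvesicles, a normalized difference of -0.39 ± 0.53 (limma adjusted p = 0.637). Atp5l, subunit g, gave 1932 and 1300 against 746 and 455, with 0.99 on array 1 and -2.12 on array 2 after normalization. Atp5mpl, a small proteolipid of the complex, gave 93.6 and 81.5 in the cells, 72.8 on microvesicle RNA array 1 and 2353 on array 2. Atp5k, subunit e, was detected on no array.

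Within chip 1, microvesicle RNA array 1 can be set against the cells without the chip that held array 2. With chip as a block, which gives the same fit as leaving out microvesicle RNA array 2, limma called 10 member probes higher (25.6%) and 14 lower (35.9%), against 25% and 44.7% of all tested probes. This fit draws its spread from the 2 cell arrays alone and assumes that microvesicles vary as little. Its higher calls included Cox7a2l (1.76), Atp5g2 (1.38), Uqcr11 (1.22) and Uqcrh (1.19). Its lower calls included Cox6a1 (-1.39), Cyc1 (-1.22), Atp5pb (-1.22) and Cox6b1 (-1.08). Before normalization, Atp5g2 (298 on array 1, 647 and 401 in the cells) and Uqcrh (351, against 933 and 526) lay below the cells. The raw signal of Uqcr11 (83.0, against 97.6 and 78.9) lay between those of the cells. The higher calls of these genes therefore depend on the normalization. For Cox7a2l, the raw signal on array 1 (94.9, bead standard error 6.27) lay just above the cells (91.9 and 86.7). Its difference of 1.76 was reached only after background correction and normalization. A probe at its cell mean of 5.60 lies above the cells whenever array 1 detects it, since the lowest detected value there was 6.51. With median scaling in place of quantile normalization, limma called 15 member probes lower and 0 higher, against 42.6% and 0.181% of all tested probes, among them Cyc1 (-4.13), Uqcrc1 (-3.39) and Atp5pb (-3.42). That scaling moved the median difference of all tested probes from -0.87 to -1.28, and of the member probes from -0.61 to -1.25. With no normalization limma called 12 member probes lower and 0 higher, against 36.5% and 0.129% of all tested probes, and with no filter 0 members, against 0.0623% higher and 0.634% lower. Without microvesicle RNA array 1 it called 13 member probes higher and 24 lower, against 17.3% and 70.1%, from the spread of the cell arrays alone.

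The microvesicle DNA array gave almost no member signal. Of 55 member probes, 3 were detected (all probes 1.33%), all close to the threshold. They were Sdhb at 96.8, Atp5a1 at 96.2 and Cox6a1 at 95.0, with shares of negative controls at or above them of 0.00376, 0.00501 and 0.00501. The bead standard errors of these 3 signals were 4.45, 3.98 and 4.40, and the median signal of all probes on this array was 70.2. The other probes of Sdhb gave 89.3 and 58.5, and the other probe of Cox6a1 gave 60.8. No probe of complex III or of cytochrome c was detected on this array. With 1 DNA array there is no replicate check.

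The other genes of the pathway were taken from lists of assembly factors, of regulators and of subunits that the symbol pattern misses. No gene on them passed the test (0% of all tested probes). Of 30 assembly factors on the array, 8 were tested, with 3 below the cells on both microvesicle arrays (all tested genes 50.3%) and 0 above (all tested genes 15%). The 3 with the brightest cell probes were the ATP synthase inhibitor Atpif1 (-0.43 ± 0.65, limma adjusted p = 0.67), the copper chaperone Cox17 (-1.89 ± 1.01, adjusted p = 0.298) and the heme-processing enzyme Cox10 (-1.27 ± 0.78, adjusted p = 0.342). On microvesicle RNA array 2, 22 of the 30 were detected (all probes 21.8%), against 6 on array 1 (all probes 7.88%) and 8 on each cell array (all probes 16.3% and 14.1%). The counts of assembly factors take the brightest probe of each gene, so the shares of all probes are not a matched background. Coa5, a complex IV assembly factor, reached 6245 on microvesicle RNA array 2 against 65.1 to 69.1 on the other RNA arrays and was named after its values were seen. Of 13 regulators, 5 were tested, with 2 below (all tested genes 50.3%) and 0 above (all tested genes 15%). The nuclear receptor Esrra was at -0.70 ± 0.64 (limma adjusted p = 0.492), the transcription factor Nrf1 at -2.38 ± 0.92 (adjusted p = 0.206) and the coactivator Ppargc1b at 0.10 ± 0.42 (adjusted p = 0.893). Polrmt, the mitochondrial RNA polymerase, gave 215 and 151 in the cells, was not detected in microvesicles at 64.8 and 85.7, and was at least 2.37-fold lower there (limma adjusted p = 0.0917). Among the assembly factors Lrpprc, which stabilises mitochondrial messenger RNA, was detected in the cells and not in microvesicles (limma adjusted p = 0.0976). Its bound of 1.49-fold lower rests on array 2, since its cell mean of 6.27 lies under the lowest value detected on array 1, 6.51. Of the missed subunits, Cox4i1, the general form of complex IV subunit IV, gave 271 and 192 in the cells and 120 and 2038 in microvesicles, a normalized difference of 2.05 ± 1.02 (limma adjusted p = 0.272). Cox4i2 and the testis cytochrome c gene Cyct were detected on no array.

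Respiratory genes are known to share control by the nuclear respiratory factor NRF1, factors of the ETS family, YY1 and estrogen-related receptors. RefSeq promoter windows (GRCm38.p6, 250 bases before to 50 after a start) were found for 35 of the 45 genes, 38 windows in all, and searched on both strands for exact core letters. The NRF1 core, GCGCA and GCGC with any 1 base between them, was in 9 of 38 member windows (23.7%) against 7.02% of windows of all genes on the array and 4.6% of all windows. The ETS core CCGGAAG was in 31.6% of member windows against 12.2% of those of array genes and 8.86% of all. The YY1 core AAGATGGCG was in 5.26% against 2% and 1.4%, and the ERR core TCAAGGTCA in 5.26% against 0.29% and 0.423%. No matches of different motifs overlapped in a member window. The genes with the NRF1 core were Sdhd, Uqcrc1, Cox6a1, Atp5c1, Atp5g2, Atp5g3, Atp5h, Atp5k and Atp5o, a set that holds differences on both sides of the cells (Cox6a1 at -2.89, Atp5g2 at 1.07) and genes detected on no array. A match is a run of letters and not a measured binding site. To show how the core lies in a gene of complex II, IV and V, the 250 bases before the start of Sdhd (chr9:50603850-50604099, minus strand), Cox6a1 (chr5:115348959-115349208, minus strand) and Atp5g2 (chr15:102671048-102671297, minus strand) are printed 5′ to 3′ from RefSeq with the core in capitals.
Sdhd: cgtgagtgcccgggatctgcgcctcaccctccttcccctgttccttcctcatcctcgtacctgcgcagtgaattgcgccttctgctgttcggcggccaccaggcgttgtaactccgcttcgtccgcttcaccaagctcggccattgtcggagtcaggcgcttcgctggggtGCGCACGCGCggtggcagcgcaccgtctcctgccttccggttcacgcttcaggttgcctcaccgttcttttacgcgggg
Cox6a1: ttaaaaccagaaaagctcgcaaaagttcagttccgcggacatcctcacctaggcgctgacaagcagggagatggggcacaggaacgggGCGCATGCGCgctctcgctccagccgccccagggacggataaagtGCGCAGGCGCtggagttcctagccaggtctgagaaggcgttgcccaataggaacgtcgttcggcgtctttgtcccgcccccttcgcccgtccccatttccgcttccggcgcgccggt
Atp5g2: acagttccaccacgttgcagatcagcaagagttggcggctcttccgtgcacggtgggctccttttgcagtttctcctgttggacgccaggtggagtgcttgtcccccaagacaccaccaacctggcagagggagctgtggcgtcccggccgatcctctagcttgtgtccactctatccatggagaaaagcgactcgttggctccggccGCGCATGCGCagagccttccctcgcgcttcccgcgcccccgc
The first core begins at position -79 of Sdhd, -162 of Cox6a1 and -42 of Atp5g2, counted from the start.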

How the data were processed

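The deposited raw table holds for every probe a linear, unnormalized mean intensity over its beads, the standard error of that mean, the bead count and a detection p-value. The submitters' processing notes name BeadStudio 3.3. The processed intensity table that the authors deposited was used only as an alternative, and its normalization method is not stated by any label or header. Raw signals of the 4 RNA arrays were background-corrected and quantile-normalized with neqc (offset 16) in limma 3.58.1 under R 4.3.3, with negative controls inferred from the detection p-values. Probes detected at a detection p under 0.01 on 2 or more RNA arrays (3878 probes) entered lmFit and eBayes. The test was two-sided at a Benjamini-Hochberg adjusted p of 0.05. The fit was tested on simulated data with the same spread in both groups. That check does not cover the unequal spread of the cell and microvesicle arrays. Groups and replicate numbers came from the sample titles. Where a group was detected on none of its arrays, a fold is a lower bound. It is set against each array's lowest detected value, or the probe's own value where that is higher, averaged over the group. The lowest detected log2 value was 6.51 on microvesicle RNA array 1 and 4.88 on array 2. A bound for a gene with a cell mean under 6.51 therefore rests on array 2. Quantile normalization gives every array the same distribution, and the offset compresses differences of dim probes. The labels do not say that replicates were separate cultures, so p-values measure only the spread between these arrays, which may be technical. Symbols came from the platform annotation, and all 55 member probes were found in RefSeq by gene identifier. Members and gene lists were chosen with earlier results of these data known. The genes named are complex II, Cyc1 and Cycs, the 3 brightest in the cells and the 3 largest non-overlapping differences each way in complexes III, IV and V, tissue isoforms, subunit c genes and members detected on the DNA array; the remaining members are given for completeness. A planned comparison with protein length was not run, since no protein sequences were used here.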

Additional observations from a re-analysis of the deposited data

How the results depend on the processing

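The count of 0 probes past the threshold in limma, over all probes and over the members, depended on the scaling and on the source of the spread. Over all probes and over members, the counts were 1658 and 15 with median scaling, 1421 and 12 with no normalization, 687 and 1 with a variance trend, 2703 and 24 with chip as a block and 179 and 0 with no filter. At an unadjusted p under 0.05 the main fit gave 214 higher and 900 lower. Leaving out 1 array at a time gave 0 to 3391 over all probes and 0 to 37 over members. The counts were 0 without either cell array, 3391 and 37 without microvesicle RNA array 1 and 2703 and 24 without microvesicle RNA array 2, which is the same fit as chip as a block. A microvesicle group of 1 array is assumed to vary like the cells. The replicate block left both counts at 0. The titles tie samples by a replicate number only. Same-numbered deviations correlated at -0.237 over 2 pairs. With 2 arrays per group the crossed pairing mirrors this value, so it cannot show whether samples were paired. The crossed pairing, chosen after seeing the data, also gave 0 and 0. A filter at a detection p of 0.05, a filter on all 4 RNA arrays, another background correction and the authors' processed table also gave 0 and 0. The median of complex V was -0.86 with median scaling, -0.78 with no normalization, 0.19 with a filter at a detection p of 0.05, 0.05 with chip as a block and -0.34 to 0.05 on leaving out 1 array. The median of complex II (0.19) was 0.30 with median scaling, -0.20 with no filter, -0.79 with chip as a block and -0.79 to 1.17 on leaving out 1 array. That of complex III (-1.25) was -2.12, -0.44, -0.36 and -2.15 to -0.36 under the same changes, and that of complex IV (-0.92) was -1.31, -0.13, -0.17 and -1.42 to -0.17, with -0.43 under another background correction. With no normalization the 3 medians were 0.38, -2.04 and -1.23, and that of complex II was 0.04 in the authors' processed table. Detected member probes on the DNA array were 5 at a detection p under 0.05. Signs reversed under median scaling and no normalization for Atp5c1 (-0.31 and -0.23), Atp5g2 (-0.14 and -0.06), Atp5j (-0.69 and -0.61) and Cycs (-0.31 and -0.23), and under no normalization for Atp5a1 (0.03). With chip as a block they reversed for Atp5g1 (0.50), Atp5g3 (-0.08), Atp5j2 (0.17), Cox7a1 (-0.06), Cox8b (0.37) and Sdhc (-0.91). The other probes of Atp5j reversed it (-1.30 and -0.82). Leaving out 1 array gave -0.55 to 0.27 for Atp5a1, -1.44 to 0.50 for Atp5g1, -0.08 to 5.13 for Atp5g3, -0.95 to 0.17 for Atp5j2, -0.06 to 2.0 for Cox7a1, -2.21 to 0.37 for Cox8b, -0.70 to 0.92 for Cycs and -0.91 to 2.90 for Sdhc. The cause of these reversals was not tested. Only 2 arrays per RNA group limit the precision. Members not detected in microvesicles carry bounds where a bound could be set. The differences of Cycs and of the dimmest Atp5j probe rest on microvesicle values that were not detected.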
